A study of Mus musculus with 6 samples.

Results

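Expression of 10 published markers of marrow stroma and skeletal stem cells was read in Axin2+/GFP+ and Axin2-/GFP- cells of the mouse calvarial suture, the fibrous seam between the flat bones of the skull. The genes were Cxcl12, Kitl, Grem1, Lepr, Pdgfra, Eng, Vcam1, Mcam, Nt5e and Nes. They were taken by name, and all 10 were measured among the 19938 genes tested. Each had 1 array feature with that gene as its only symbol. There were 3 samples of Axin2+/GFP+ cells and 3 samples of Axin2-/GFP- cells, with 1 array per sample, and each sample was a pool of 6 to 8 mice. All mice carried Axin2rtTA, which places a doxycycline-dependent activator under Axin2 control, and TRE-H2BGFP, a histone-GFP fusion that this activator switches on. All received doxycycline between postnatal days 25 and 28, were collected at postnatal day 28 and had a mixed background of C57BL/6J, CD-1 and B6CBAF2. Cells were released with collagenase and separated by GFP intensity, and the study's methods describe no gate on blood cell antigens for this sort. GFP therefore reports Axin2 promoter activity in any cell type, and a fused histone can outlast the activity that induced it.

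The study asked whether suture stem cells carry the markers of their counterparts in bone marrow. In marrow, perivascular stromal cells hold blood stem cells in place and feed them through secreted factors, chiefly the chemokine Cxcl12 and stem cell factor, which Kitl encodes. The leptin receptor, Nestin reporters, CD146 (Mcam) and Gremlin1 have each been used to mark skeletal stem cells or their stroma, and PDGF receptor alpha, VCAM1, endoglin (Eng, CD105) and CD73 (Nt5e) serve as surface antigens for sorting such cells. Several of these proteins are also made by endothelial cells, pericytes, lymphocytes or macrophages, so none of them marks a single cell type.

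Vcam1, an adhesion molecule that binds leukocyte integrins, was 2.09-fold higher in Axin2+/GFP+ cells and was the 1 gene of the 10 that passed an adjusted p of 0.05 in limma. The deposited values are on the log2 scale, where a change of 1 is a doubling. The other 9 genes did not pass in either direction. Over all genes tested, 4.64% were called higher and 11.4% were called lower, and the marker genes gave 1 call higher and 0 lower out of 10. Before adjustment, 3 genes (Vcam1, Nt5e and Lepr) had a p under 0.05 with a higher value and 1 (Eng) with a lower one, against 16.3% and 17.6% of all genes. Every Axin2+/GFP+ sample lay above every Axin2-/GFP- sample for 4 genes (Vcam1, Nt5e, Lepr and Nes), which held for 23.1% of all genes. Every Axin2+/GFP+ sample lay below every Axin2-/GFP- sample for 2 genes (Eng and Kitl), which held for 17.8% of all genes. The median log2 change of the 10 genes was 0.14, and that of all genes tested was also 0.14.

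**Figure D1:**
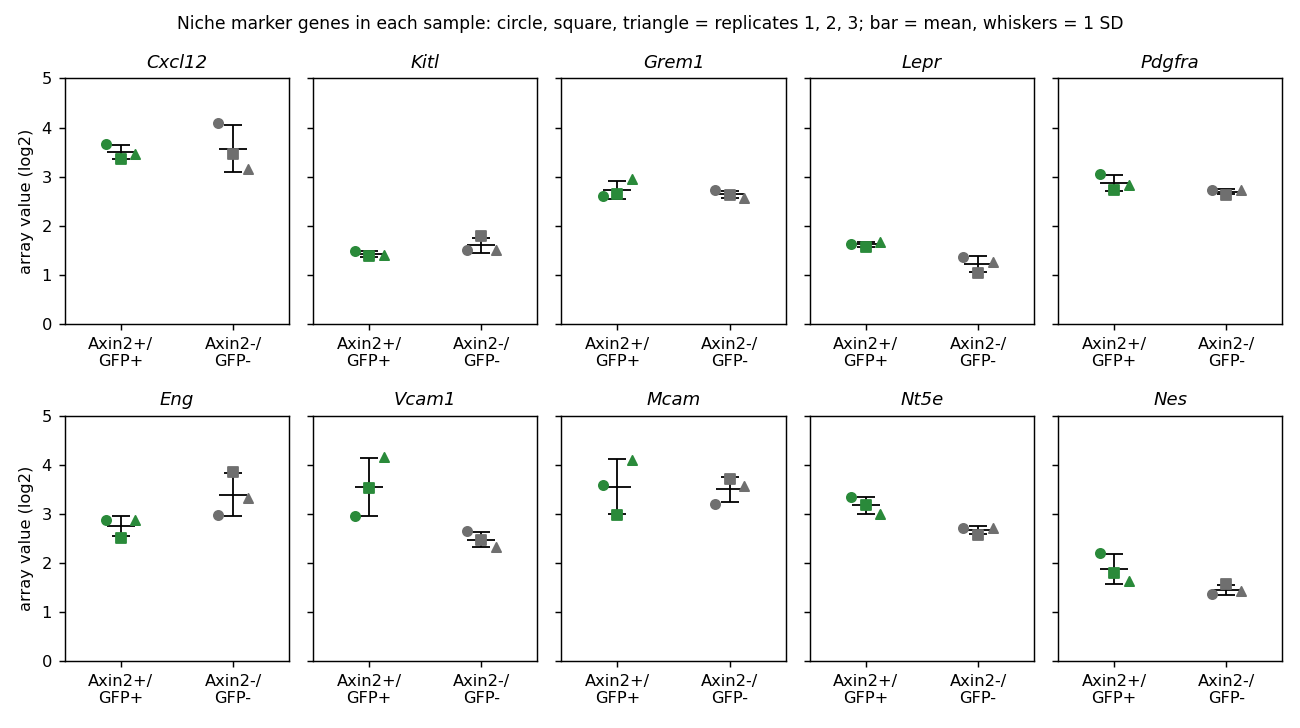
Array values on the log2 scale (vertical axis) of the 10 marker genes, with green symbols for the 3 Axin2+/GFP+ samples and grey symbols for the 3 Axin2-/GFP- samples. The horizontal bar is the mean and the whiskers are 1 SD, and the populations stand apart for Lepr, Vcam1, Nt5e and Nes (Axin2+/GFP+ higher) and for Eng and Kitl (Axin2+/GFP+ lower).

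Axin2 itself, the gene that drives the sort, had log2 values of 2.89, 2.54 and 3.07 in Axin2+/GFP+ samples and 2.18, 2.27 and 2.38 in Axin2-/GFP- samples, which did not overlap. Its log2 change was 0.55 with an adjusted p of 0.0802 in limma, so the RNA of the sorted gene differed in the labelled direction without passing the threshold. Signal was distributed differently on the arrays of the 2 populations, although the submitters' notes name RMA. Whether RMA's quantile step was applied across all 6 arrays is not stated, and every other scaling tried removed the call of Vcam1. The upper quartile of the log2 values was 3.72 to 3.76 in Axin2+/GFP+ samples and 3.97 to 4.0 in Axin2-/GFP- samples, and the change between the populations moved with the signal. For genes with a mean log2 value of 1 to 2, which include Lepr, Nes and Kitl, the median log2 change was 0.28. It was 0.24 for values of 2 to 3 (Grem1, Pdgfra and Nt5e among them), -0.04 for values of 3 to 4 (Mcam, Cxcl12, Vcam1 and Eng) and -0.53 at 4 and above, where no marker gene lay. As a measure of low signal, 1194 olfactory and vomeronasal receptor genes, which bone cells are not known to use, changed by a median of 0.30 on the log2 scale (quartiles 0.15 and 0.48). Axin2 also gave low signal, and each of its values lay below the 95th percentile of these receptor genes on its own array. At least as bright as Axin2 were 7.04% of them in Axin2+/GFP+ samples and 12.3% in Axin2-/GFP- samples. With each array centred on these genes, the log2 change of Axin2 was 0.24 (adjusted p = 0.496 in limma). The labels call the samples biological replicates, and the p-values rest on the spread of these 6 samples alone.

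Promoter sequence was looked up for the marker genes because the sort rests on Axin2, a target of Wnt signalling through TCF/LEF factors. RefSeq start sites matched 9 of the 10 genes, with 10 windows of 250 bases before to 50 bases after a start (Lepr has 2 starts). Vcam1 was not among them. The windows were searched on both strands for the TCF/LEF letters CTTTGAT and CTTTGTT, the GC box GGGCGG and the TATA box TATAAA. A TCF/LEF match was found in 1 window, that of Cxcl12, and in 9.33% of 32851 promoters of the same length. A GC box was found in 7 of the 10 windows, against 35.7% of all promoters, and overlapping GC boxes were counted singly. A TATA box was found in 1 window, that of Kitl, against 13.6% of all promoters. Shown here are the windows of Nt5e, the highest-ranking marker gene with a window by its test, of Eng, which moved the opposite way, and of Cxcl12, which held the TCF/LEF match. They lie at chr9:88327359-88327658 (plus strand), chr2:32646345-32646644 (plus strand) and chr6:117168285-117168584 (plus strand) of GRCm38.p6, and capitals mark TCF/LEF and GC box matches on either strand. A match of letters is a description of the sequence and not a site of binding.
Nt5e: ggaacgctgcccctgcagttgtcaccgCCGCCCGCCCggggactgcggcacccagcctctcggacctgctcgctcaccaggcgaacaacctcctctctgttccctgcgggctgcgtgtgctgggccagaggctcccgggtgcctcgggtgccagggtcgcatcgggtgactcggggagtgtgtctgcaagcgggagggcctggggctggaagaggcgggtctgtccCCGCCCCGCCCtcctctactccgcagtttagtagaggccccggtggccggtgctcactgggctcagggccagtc
Eng: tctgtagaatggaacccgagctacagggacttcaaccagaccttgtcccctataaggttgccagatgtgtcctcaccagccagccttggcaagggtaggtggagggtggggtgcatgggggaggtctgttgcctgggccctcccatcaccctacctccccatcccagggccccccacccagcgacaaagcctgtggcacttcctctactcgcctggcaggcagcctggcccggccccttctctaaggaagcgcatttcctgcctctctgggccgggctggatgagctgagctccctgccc
Cxcl12: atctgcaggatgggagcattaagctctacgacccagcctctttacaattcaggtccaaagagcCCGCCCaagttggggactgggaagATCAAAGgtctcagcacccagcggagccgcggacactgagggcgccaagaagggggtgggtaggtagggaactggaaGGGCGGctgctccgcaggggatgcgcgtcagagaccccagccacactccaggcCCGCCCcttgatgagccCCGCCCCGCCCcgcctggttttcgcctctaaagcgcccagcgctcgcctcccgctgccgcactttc
The Nt5e window held 4 GC boxes in 2 overlapping pairs, the Cxcl12 window held 5 and the Eng window held none. GC content was 71.0% for Nt5e, 63.3% for Eng and 64.7% for Cxcl12, against a median of 52.7% over all promoters.

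Of the secreted factors, none passed the test. Cxcl12, the chemokine that retains blood stem and precursor cells in marrow, had log2 values of 3.66, 3.37 and 3.46 in Axin2+/GFP+ samples and 4.09, 3.47 and 3.15 in Axin2-/GFP- samples. The Axin2-/GFP- samples spanned the whole range of the Axin2+/GFP+ samples. Cxcl12 changed by -0.07 on the log2 scale (adjusted p = 0.842 in limma), and the 95% interval of -0.64 to 0.49 corresponds to folds of 0.643 to 1.40. Kitl, the ligand of the receptor Kit on blood stem cells, mast cells and melanocytes, had log2 values of 1.49, 1.38 and 1.41 in Axin2+/GFP+ samples and 1.51, 1.79 and 1.51 in Axin2-/GFP- samples. Its populations did not overlap, although Axin2+/GFP+ replicate 1 lay close beneath Axin2-/GFP- replicates 1 and 3. Kitl changed by -0.17 on the log2 scale (95% interval -0.55 to 0.21, adjusted p = 0.471 in limma). Grem1, a secreted antagonist of BMPs, had log2 values of 2.61, 2.64 and 2.95 in Axin2+/GFP+ samples and 2.72, 2.63 and 2.57 in Axin2-/GFP- samples. The populations overlapped, with Axin2+/GFP+ replicate 3 above the rest. Its log2 change was 0.09 (95% interval -0.30 to 0.48, adjusted p = 0.712 in limma) and turned negative under the other 4 scalings, between -0.23 and -0.02.

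The 3 receptors gave unlike values. Lepr, which binds leptin, had log2 values of 1.63, 1.57 and 1.67 in Axin2+/GFP+ samples and 1.36, 1.04 and 1.26 in Axin2-/GFP- samples. The SD among Axin2+/GFP+ samples, 0.05, was the lowest of the 10 genes, and the populations did not overlap. Lepr changed by 0.40 on the log2 scale with a 95% interval of 0.02 to 0.78, a fold of 1.32 (adjusted p = 0.128 in limma). With the methods' t-test its p was 0.0151 before adjustment and 0.103 after. The change lay within the quartiles of the receptor genes' changes given above, and it was 0.08 when each array was centred on those genes. Pdgfra, the receptor for PDGF found on most mesenchymal cells, had log2 values of 3.06, 2.72 and 2.84 in Axin2+/GFP+ samples and 2.72, 2.63 and 2.72 in Axin2-/GFP- samples. The populations met at 2.72. Pdgfra changed by 0.18 on the log2 scale (95% interval -0.20 to 0.57, adjusted p = 0.453 in limma) and -0.14 when centred on the receptor genes.

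Eng, an accessory receptor for TGF-beta and BMP ligands that is abundant on endothelium, was lower in Axin2+/GFP+ cells without passing the threshold. It had log2 values of 2.88, 2.52 and 2.87 in Axin2+/GFP+ samples and 2.98, 3.85 and 3.33 in Axin2-/GFP- samples. The populations did not overlap, and the gap was narrowest at Axin2-/GFP- replicate 1. Its log2 change was -0.63 (SE 0.24, 95% interval -1.18 to -0.08, adjusted p = 0.109 in limma), and it passed when each array was centred on the receptor genes (-0.95, adjusted p = 0.0224). Among 10 endothelial markers, Pecam1 fell, with log2 values of 3.62, 2.83 and 3.2 in Axin2+/GFP+ samples and 5.25, 5.21 and 5.89 in Axin2-/GFP- samples (adjusted p = 0.00119 in limma). Pecam1 is also a surface protein of leukocytes and platelets. The other 9 endothelial markers were not called, and 7 of the 10 had a change above 0. The populations did not overlap for the junction gene Cdh5 (log2 change -0.34), which was lower, or for the junction gene Cldn5 (0.71, adjusted p = 0.0528 in limma) and the receptor gene Tie1 (0.24), which were higher. The summed signal of the endothelial list (sum of the values taken out of the log2 scale) was 72.2 to 73.7 in Axin2+/GFP+ samples and 90.3 to 124 in Axin2-/GFP- samples. Without Pecam1, an alternative added after the values were seen, it was 60.9 to 66.6 in Axin2+/GFP+ samples and 53.2 to 64.4 in Axin2-/GFP- samples, which overlapped. The part of endothelial cells in the change of Eng was not tested. In sorted bulk samples, fewer cells of a type and less RNA per cell cannot be told apart.

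Vcam1, through which stromal and endothelial cells hold integrin-bearing leukocytes, had log2 values of 2.96, 3.53 and 4.16 in Axin2+/GFP+ samples and 2.65, 2.47 and 2.33 in Axin2-/GFP- samples. Every Axin2+/GFP+ sample was above every Axin2-/GFP- sample, and the Axin2+/GFP+ samples had the largest SD of the 10 genes (3.55 ± 0.60 against 2.48 ± 0.16, SD, n = 3 each). Vcam1 rose by 1.07 on the log2 scale (SE 0.29, 95% interval 0.41 to 1.72, adjusted p = 0.0387 in limma), a fold of 2.09 with bounds of 1.33 and 3.29. It kept its sign under the 4 other scalings (log2 changes of 0.75 to 1.07) and when any 1 sample was left out (0.76 to 1.36). The remaining alternatives left its log2 change at 1.07, so they could not test the sign. It passed the threshold under 4 of the 15 alternatives, with adjusted p-values of 0.0113 to 0.158 over the 15. These 4 were the trend option, feature averaging, the filter on dim features and omission of Axin2+/GFP+ replicate 1. Of these, only the omission changed the estimate. The call was lost under every one of the 4 other scalings, the replicate block and the methods' t-test, and without Axin2+/GFP+ replicate 2 or 3 or any 1 of the Axin2-/GFP- samples. Its change was 0.76 without Axin2+/GFP+ replicate 3 and 1.36 without Axin2+/GFP+ replicate 1, where it passed. Macrophages can also carry VCAM1, and the summed signal of 10 macrophage markers was 70.0 to 86.9 in Axin2+/GFP+ samples and 106 to 113 in Axin2-/GFP- samples. Without Cd68, an alternative added after the values were seen, the sums overlapped, at 56.6 to 66.7 in Axin2+/GFP+ samples and 58.9 to 69.5 in Axin2-/GFP- samples. Of that list Cd68 was called lower, 9 genes were not called and 6 of the 10 had a change above 0. Their part in the change of Vcam1 was not tested, and 6 of the 10 lay at or below the 95th percentile of the olfactory and vomeronasal receptor genes.

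Mcam, the adhesion molecule CD146 of pericytes and endothelium, had log2 values of 3.59, 2.99 and 4.11 in Axin2+/GFP+ samples and 3.21, 3.72 and 3.57 in Axin2-/GFP- samples. The Axin2+/GFP+ samples held both the highest and the lowest of the 6 values. Mcam had a change of 0.06 on the log2 scale (SE 0.29, adjusted p = 0.884 in limma), and with a 95% interval of -0.59 to 0.71 neither direction was resolved. It was negative under both kinds of centring (-0.05 and -0.26) and positive after quantile normalization and cyclic loess. None of 10 pericyte and smooth muscle markers was called in limma. Before adjustment, 1 had a p under 0.05 with a higher value (Des) and 1 with a lower one (Rgs5), against 16.3% and 17.6% of all genes. The methods' t-test called 0 of these pericyte and smooth muscle markers at either threshold. Their summed signal was 78.7 to 131 in Axin2+/GFP+ samples and 81.0 to 96.5 in Axin2-/GFP- samples.

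Nt5e, the surface enzyme CD73 that turns AMP into adenosine, had log2 values of 3.35, 3.19 and 3.01 in Axin2+/GFP+ samples and 2.71, 2.57 and 2.72 in Axin2-/GFP- samples. The populations did not overlap, with Axin2+/GFP+ replicate 3 nearest to the Axin2-/GFP- samples. Nt5e differed by 0.51 on the log2 scale (SE 0.17, 95% interval 0.13 to 0.90, adjusted p = 0.0733 in limma), a fold of 1.43, and it was called under 0 of the 15 alternatives. It was 0.19 when centred on the receptor genes. Nes, the intermediate filament Nestin of neural and other precursor cells, had log2 values of 2.21, 1.80 and 1.63 in Axin2+/GFP+ samples and 1.38, 1.57 and 1.43 in Axin2-/GFP- samples. The populations did not overlap, and Axin2+/GFP+ replicate 3 lay just above Axin2-/GFP- replicate 2. Nes differed by 0.42 on the log2 scale (95% interval -0.03 to 0.86, adjusted p = 0.169 in limma) and 0.10 when centred on the receptor genes.

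**Figure D2:**
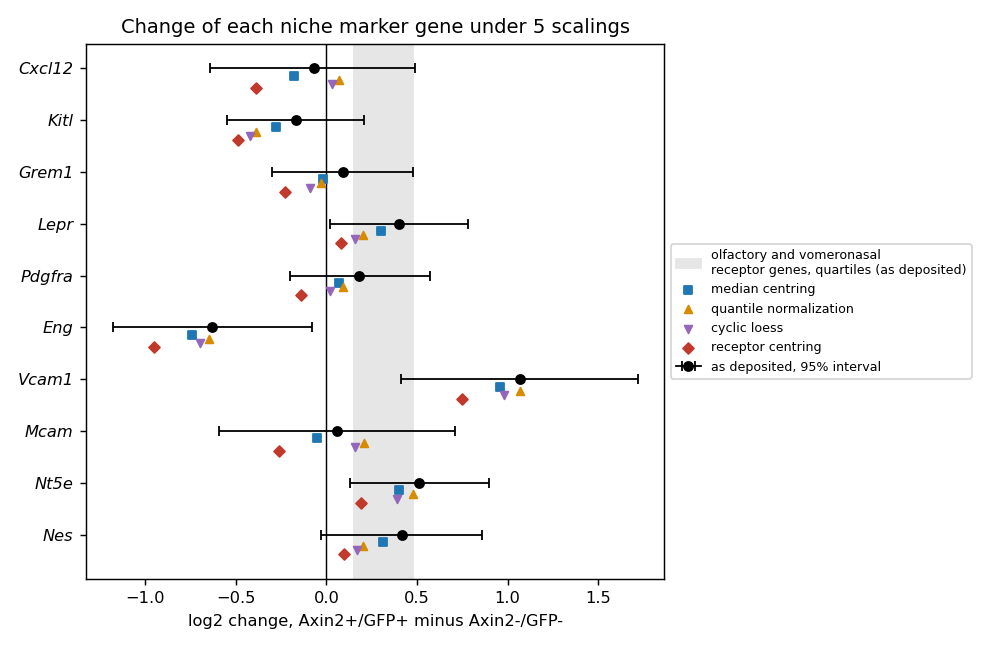
Log2 change between Axin2+/GFP+ and Axin2-/GFP- cells (horizontal axis) of each marker gene, with a black point and 95% interval for the deposited values and coloured symbols for 4 other scalings. The grey band spans the quartiles of the receptor genes, 0.15 to 0.48, and only the intervals of Lepr, Vcam1 and Nt5e (above) and Eng (below) leave out 0.

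Several marker genes lay near the floor of the array. Of the 10, 5 (Lepr, Nes, Kitl, Grem1 and Pdgfra) had a mean over the 6 samples at or below the 95th percentile of the olfactory and vomeronasal receptor genes, a log2 value of 2.83. Probes differ in brightness, so this places a gene near the floor of the array without ranking one gene over another. Of the receptor genes, 77.8% in Axin2+/GFP+ samples and 41.2% in Axin2-/GFP- samples were at least as bright as Kitl. For Lepr the shares were 62.1% and 71.6%, and for Nes 43.8% and 50.3%. For Vcam1 the shares were 1.59% in Axin2+/GFP+ samples and 7.79% in Axin2-/GFP- samples, and for Eng 8.46% and 1.01%. Both genes had a population near the floor. Vcam1 averaged 2.48 in Axin2-/GFP- samples, where the 95th percentile of the receptor genes was 2.74 to 2.80 per array. Its Axin2+/GFP+ replicate 1, at 2.96, also lay below that percentile of its own array, 3.30. Eng averaged 2.76 in Axin2+/GFP+ samples, where the percentile was 3.05 to 3.30. Nt5e likewise averaged 2.67 in Axin2-/GFP- samples, below the percentile there. Its Axin2+/GFP+ replicate 3, at 3.01, lay below the percentile of its own array, 3.08.

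Calls were also made among the partners of these genes, which form ligand and receptor pairs with them or act in the same pathway. Of 27 listed partners, 25 were measured, of which 3 were called higher and 5 lower in limma, against 4.64% and 11.4% of all genes. Their median log2 change was 0.10, against 0.14 for all genes. Before adjustment, 4 had a p under 0.05 with a higher value and 8 with a lower one, against 16.3% and 17.6% of all genes. Cxcr4, the receptor through which leukocytes follow Cxcl12, had log2 values of 8.38, 7.54 and 8.08 in Axin2+/GFP+ samples and 9.84, 10.03 and 10.03 in Axin2-/GFP- samples. It fell by 1.97 on the log2 scale (adjusted p = 0.0011 in limma), while Ackr3, the scavenging receptor for the same chemokine, had a log2 change of 0.41 that was not called. Itga4, the integrin chain that binds Vcam1, had log2 values of 3.37, 3.43 and 3.17 in Axin2+/GFP+ samples and 5.65, 5.37 and 5.32 in Axin2-/GFP- samples. It fell by 2.12 on the log2 scale (adjusted p = 0.0003 in limma), so the ligand and this receptor chain changed in opposite directions between the populations. Its partner chains Itgb1 and Itgb7 had log2 changes of -0.41 and -0.32 and were not called.

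Kit, the receptor for Kitl, had log2 values of 2.33, 2.97 and 3.16 in Axin2+/GFP+ samples and 3.52, 4.11 and 3.30 in Axin2-/GFP- samples. The populations did not overlap, and the log2 change of -0.82 was not called (adjusted p = 0.0807 in limma). Within the pathway of Eng, the ligand Tgfb1 fell by 1.70 and the signalling receptors Tgfbr1 and Tgfbr2 fell by 1.52 and 0.96 on the log2 scale (adjusted p = 0.0033, 0.0072 and 0.029 in limma). Acvrl1, the ALK1 receptor that pairs with endoglin for BMP9, rose by 0.74 (adjusted p = 0.0205 in limma), and the gene for BMP9, Gdf2, had a log2 change of 0.22 that was not called. Of the BMPs that Gremlin1 binds, Bmp7 rose by 0.76 (adjusted p = 0.0403 in limma), while Bmp2 and Bmp4 each had a log2 change of 0.41 and were not called. Lep, the leptin gene, rose by 0.62 (adjusted p = 0.0433 in limma), with log2 values of 1.99 to 2.26 in Axin2+/GFP+ samples and 1.3 to 1.59 in Axin2-/GFP- samples. At least as bright as Lep were 32.2% of receptor genes in Axin2+/GFP+ samples and 50.4% in Axin2-/GFP- samples. Leptin's signalling genes Jak2 and Stat3 had log2 changes of -1.15 and -0.53 and were not called. None of the ligands and co-receptor of Pdgfra (Pdgfa, Pdgfb, Pdgfc and Pdgfrb), the Mcam ligand gene Lama4, the nucleotide enzymes Entpd1 and Ada, or Vim, the filament partner of Nestin, was called in limma, and 0 of these 8 had an unadjusted p under 0.05, against 1 (Pdgfc) with the methods' t-test.

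**Figure D3:**
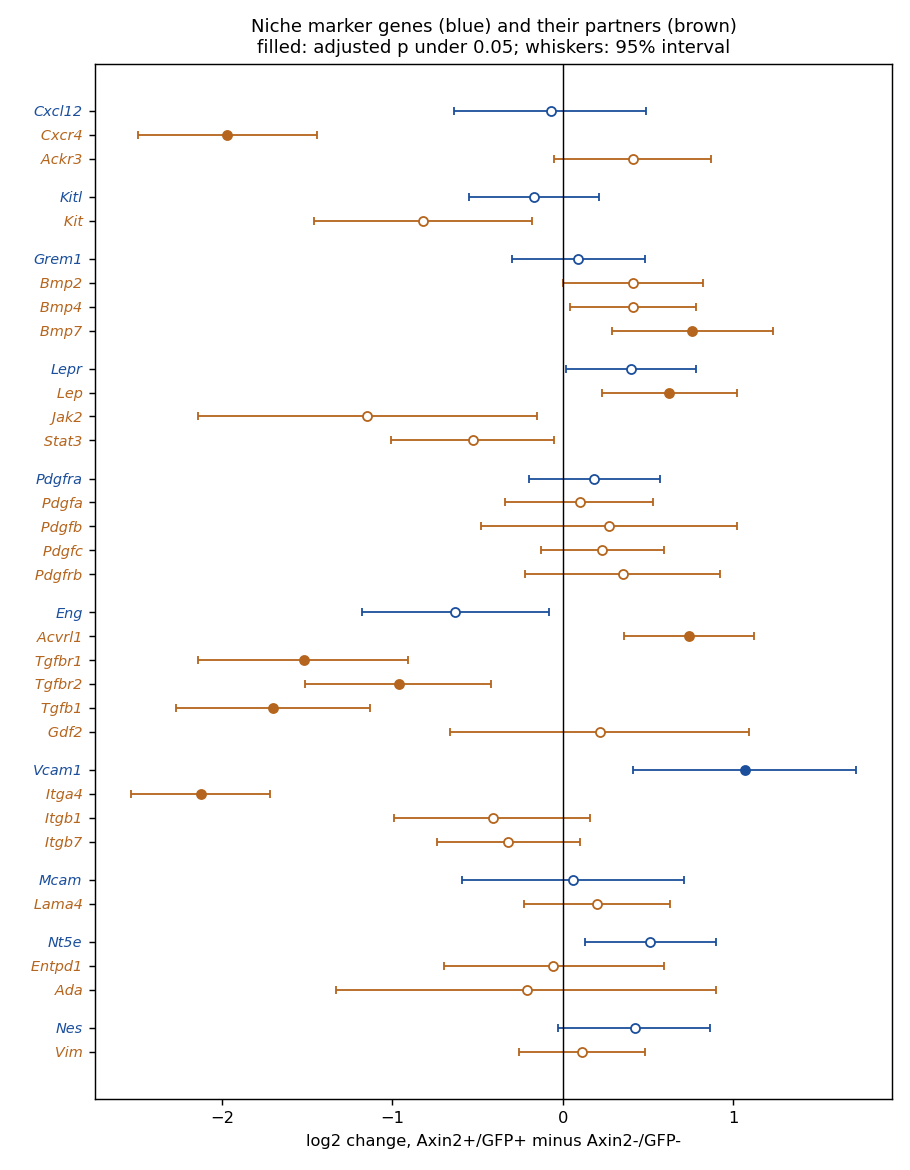
Log2 change between Axin2+/GFP+ and Axin2-/GFP- cells (horizontal axis) of each marker gene in blue and of its partners beneath it in brown, with 95% intervals and filled points where the adjusted p was under 0.05. Filled brown points for Itga4, Cxcr4, Tgfb1, Tgfbr1 and Tgfbr2 lie left of 0, and those for Acvrl1, Bmp7 and Lep lie right of 0 with Vcam1 in blue.

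Genes of blood cells also differed between the populations, in both directions. For the counts that follow, the shares over all genes tested were 4.64% called higher and 11.4% called lower. All 9 measured B lineage markers were called lower, with a median log2 change of -4.64 and a summed signal of 65.5 to 81.5 in Axin2+/GFP+ samples and 1380 to 1800 in Axin2-/GFP- samples. All 10 neutrophil markers were called higher, with a median log2 change of 2.77 and a summed signal of 20000 to 22300 in Axin2+/GFP+ samples and 2820 to 9000 in Axin2-/GFP- samples. Cxcr4, Itga4, Kit and Tgfb1 are widely used by blood cells, and the part of these cells in their changes was not tested. Of 6 T cell markers 1 was called lower (Il7r, also a gene of B cell precursors), and of 6 erythroid markers 1 was called higher and 2 lower. The collagen genes Col1a1, Col1a2 and Col3a1 gave signal well above the receptor genes in both populations, whereas 3 of 7 osteoblast markers and 3 of 9 fibroblast markers lay at or below the 95th percentile of those genes. Of 7 osteoblast markers 4 were called higher and 0 lower, among them Col1a1 with log2 values of 10.34, 10.83 and 10.37 in Axin2+/GFP+ samples and 9.0, 8.44 and 9.14 in Axin2-/GFP- samples. Alpl, the alkaline phosphatase of mineralizing cells, lay the other way, with log2 values of 3.37, 3.65 and 3.72 in Axin2+/GFP+ samples and 4.23, 4.05 and 4.02 in Axin2-/GFP- samples (adjusted p = 0.0739 in limma). Of 9 fibroblast markers 3 were called higher and 0 lower, and of 6 glial and muscle precursor markers 1 was called higher (Pax7).

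**Figure D4:**
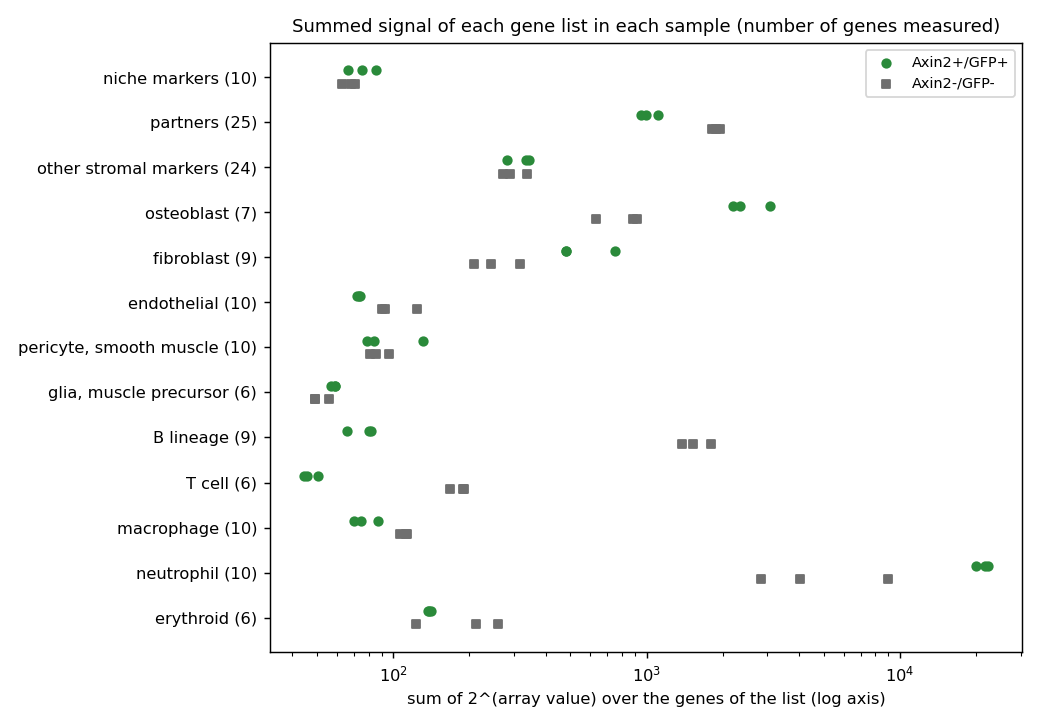
Summed signal of each gene list in each sample (horizontal log axis, values taken out of the log2 scale and added), with green points for Axin2+/GFP+ samples above grey squares for Axin2-/GFP- samples. The niche marker sums overlap (66.5 to 85.2 in Axin2+/GFP+ samples and 62.8 to 71.0 in Axin2-/GFP- samples), whereas the B lineage and neutrophil sums lie apart in opposite directions.

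Among 25 further genes of suture and marrow stroma, 24 were measured and 0 were called in limma, against 4.64% higher and 11.4% lower over all genes. The methods' t-test after adjustment also called 0. Before adjustment, limma gave 3 higher and 1 lower at a p under 0.05, against 16.3% and 17.6% of all genes, and the methods' t-test gave 1 higher. The median log2 change was 0.18, against 0.14 for all genes. Of the 24, 10 had a mean at or below the 95th percentile of the receptor genes, Ebf3, Cxcl14, Il7 and Lpl among them. The transcription factor gene Prrx1, which marks limb and head mesenchyme, had log2 values of 4.99, 4.24 and 4.0 in Axin2+/GFP+ samples and 3.79, 3.73 and 3.07 in Axin2-/GFP- samples, a log2 change of 0.88 (adjusted p = 0.078). Twist1, a regulator of suture patency, changed by 0.77 (adjusted p = 0.0915), and Igfbp5, a binding protein for insulin-like growth factors, by 0.58 (adjusted p = 0.109). Itgav, the alpha V integrin of mouse skeletal stem cell sorts, changed by -0.56 on the same scale (adjusted p = 0.13). Of the 24 genes, 6 lay higher in every Axin2+/GFP+ sample than in any Axin2-/GFP- sample (Prrx1, Twist1, Igfbp5, Gli1, Ebf3 and Cxcl14) and 3 lay lower (Itgav, Il7 and Lpl), against the 23.1% and 17.8% of all genes given above.

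For the 6 marker genes whose populations did not overlap, the tested genes with the most similar profile over the 6 samples were found by the root mean square difference of log2 values, each profile set to its own mean. Over 17004 genes searched, the closest to Vcam1 were Myh9, Aoah and Dab2, at 0.107 to 0.143. Those closest to Nt5e were Mcoln3, Slco6b1 and Slc44a4 (0.037 to 0.047), to Lepr Nhsl1, Cyb5r1 and Upp2 (0.032 to 0.043) and to Nes Tctn2, Hrc and Dppa1 (0.032 to 0.045). Those closest to Eng were Atg16l2, Pdrg1 and Fam136a (0.084 to 0.095), and to Kitl Egln2, Fyco1 and Mark4 (0.042 to 0.046). With 6 samples, a close profile is a description of these arrays, and the flatter genes had closer neighbours than Vcam1 and Eng.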

How the data were processed

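RNA of 3 samples of Axin2+/GFP+ cells and 3 samples of Axin2-/GFP- cells was measured on Affymetrix whole-transcript arrays. Values on the log2 scale for each array feature were deposited by the authors, who name RMA and R 3.2.1 in their processing notes. Its probe set level, genome build and annotation are each not given in the sources used here, and that the scale is log2 was read from the values. Columns entered as deposited, and 0 were unmatched to a sample. Of 35557 features, 21789 carry 1 gene symbol, 1621 carry several and were left out, and 12147 are unnamed here. The brightest feature was used for the 999 genes with more than 1, which left 19938 genes, of which 19856 were matched to RefSeq by gene identifier.

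Both populations were compared by limma (version 3.58.1, R 4.3.3, functions lmFit and eBayes, two-sided, 95% intervals). All 19938 genes entered the Benjamini-Hochberg adjustment, and an adjusted p under 0.05 was called. The fit was checked on simulated data. The 10 marker genes and the 13 gene lists were chosen with earlier results of these data known, so the lists carry no test of their own. Named were all marker genes, Axin2, up to 4 genes of smallest p in each list, and the 3 nearest profiles of each marker gene whose populations did not overlap. Other list members are named where a count or pathway called for it, chosen after their values were seen. The 15 alternatives comprised 4 other scalings (cyclic loess, quantile normalization, and centring of each array on its median or on the median of the receptor genes), limma's trend option, the t-test that the methods name, a block on replicate number, averaging of a gene's features, removal of dim features, and omission of each of the 6 samples in turn. Intervals and p-values cover the spread between these samples, and the number of arrays limits their precision.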

Additional observations from a re-analysis of the deposited data

How the results depend on the processing

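Of 145 log2 changes of the marker genes under the alternatives, 120 kept their direction and side of the threshold and 13 changed sign. Another 11, all of Vcam1, kept direction but lost the call, with changes between 0.75 and 1.15. A call was gained by 1 (Eng, -0.95 with receptor centring). No sign could change under the trend option, the t-test, the replicate block, feature averaging or the filter on dim features. These left the log2 change of every marker gene they covered as it was, so only the other scalings and the omission of a sample could reverse one. The sign changes were those of Grem1 (-0.02 with median centring, -0.03 with quantile normalization, -0.09 with cyclic loess and -0.23 with receptor centring, and between -0.02 and 0.15 when a sample was left out), Mcam (-0.05 with median centring and -0.26 with receptor centring, and between -0.21 and 0.35 when a sample was left out), Cxcl12 (0.07 with quantile normalization and 0.03 with cyclic loess, and between -0.28 and 0.18 when a sample was left out) and Pdgfra (-0.14 with receptor centring). Of the profiles near Kitl, Egln2 turned to 0.18 and 0.13 and Mark4 to 0.27 and 0.22 with quantile normalization and cyclic loess, and Mark4 ran between -0.15 and 0.02 when a sample was left out. The causes were not tested.

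The number of marker genes called was 0 with the methods' t-test, median centring, quantile normalization and cyclic loess, 1 with receptor centring (Eng in place of Vcam1), and 0 to 1 when a sample was left out. Partner genes called numbered 2 with the methods' t-test and 4 to 7 when a sample was left out, against 8. Other stromal genes called numbered 1 each with quantile normalization and cyclic loess (Igfbp5) and 1 with receptor centring (Itgav), against 0. After adjustment, the methods' t-test called 8 B lineage, 1 neutrophil, 1 osteoblast and 0 fibroblast markers, against 9, 10, 4 and 3 in limma. Pax7 and the osteoblast marker Dmp1 were not called under any of the 4 other scalings. Over all genes, 926 were called higher and 2265 lower, 29.0% of calls being higher. The methods' t-test gave 211 and 518, median centring 459 higher (14.4% of calls), receptor centring 210 and 3980 (5.01%), the filter on dim features 508 higher (18.1%), quantile normalization 1266 lower and cyclic loess 1468 lower. Leaving out a sample gave 239 to 852 higher and 1376 to 2082 lower, with the fewest higher calls without any 1 of the Axin2-/GFP- samples. Centring moved the median log2 change of all genes to 0.03 (median) and -0.18 (receptor), against 0.14. The filter on dim features left out the marker genes Lepr, Nes, Kitl, Grem1 and Pdgfra, and it also left out Axin2.

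The labels do not say whether replicate numbers pair the samples, and correlations over so few samples cannot settle it. Deviations from the group means of same-numbered samples correlated at 0.0314, 0.0107 and 0.053 over genes. Axin2+/GFP+ replicate 2 correlated better with Axin2-/GFP- replicate 1 (0.0171). The other differently numbered pairs gave -0.0505 to -0.0042. With the replicate block, 0 marker genes were called, 2 other stromal genes were called (Prrx1 and Twist1), and 643 genes were called higher and 2201 lower.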
